A study of Mus musculus with 4 samples.

Results

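Mature oligodendrocyte nuclei were taken from single-nucleus RNA-seq of mouse brain by their own counts. A nucleus was taken when 6 genes of myelinating oligodendrocytes, Mog, Mag, Mobp, Prr5l, St18 and Aspa, gave at least 6 UMIs together (unique molecular identifiers, 1 for each captured transcript molecule). It also had to stay within limits on genes of other cells: at most 1 UMI over Enpp6, Bmp4 and Gpr17, which mark differentiating oligodendrocytes, none of Pdgfra and Cspg4, which mark oligodendrocyte precursors, at most 1 over the neuron genes Rbfox3, Slc17a7, Slc17a6, Gad1 and Gad2, and at most 1 over Csf1r, Cldn5 and Aqp4, which mark microglia, endothelial cells and astrocytes. In all, 6212 of 78728 nuclei (7.89%) met this rule. Since measured UMIs chose the nuclei, the levels of these genes within them are given as a description and carry no test.

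The mice were male C57BL/6J animals injected into the cisterna magna (a pocket of cerebrospinal fluid at the back of the brain) with an AAV9 vector at 4 weeks of age, and brains were taken at 8 weeks. AAV-VEGF-C encoded full-length mouse VEGF-C, a growth factor of lymphatic vessels. AAV-CTRL encoded a secreted part of VEGF receptor 3 (immunoglobulin domains 4-7) that does not bind VEGF-C, so that both groups carried a virus and a secreted protein. Tissue of 5 mice was pooled per AAV label, and each pool gave 1 library labelled cortex and 1 labelled striatum, so that there were 4 libraries, 1 per group. Where 4 values are given in a row, the 2 libraries labelled cortex come first and the 2 labelled striatum follow, AAV-CTRL before AAV-VEGF-C in each pair.

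Before the results, the labels were read against genes of known position. Summed over the nuclei outside the set, 12 markers of striatal projection neurons (such as Ppp1r1b, Rgs9, Drd1 and Drd2) stood at 2671, 2761, 1387 and 1363 CPM (UMIs scaled to a fixed total of 1000000 per library), lower in the libraries labelled striatum. The 18 markers of diencephalic and midbrain neurons stood at 1891, 1869, 4143 and 4441 CPM, higher in the libraries labelled striatum. The libraries labelled striatum therefore went against that label, and "cortex label" and "striatum label" below name the libraries, not a dissected region. The matrices held 598 barcodes that occurred in more than 1 library, and 105 of the chosen nuclei had such a barcode. Leaving these barcodes out moved the shares of chosen nuclei by less than their counting intervals.

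Mature oligodendrocytes wrap axons in myelin, a compacted membrane held together by proteins such as myelin basic protein (Mbp) and rich in cholesterol and galactolipids. They arise from Pdgfra-positive precursors through a short differentiating stage, and mature cells differ among themselves in genes such as Klk6, Opalin and Ptgds. A nucleus holds mostly new, partly spliced transcripts, so that nuclear levels differ from those of whole cells.

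The chosen nuclei held the transcripts of oligodendrocytes that make myelin. Mbp set them apart from neuron nuclei but not from differentiating nuclei, whose levels are given below. Opalin, a gene outside the rule, was far higher in the chosen than in the differentiating nuclei. Mbp, which the rule did not use, had a UMI in 94.4%, 93.6%, 95.2% and 96.6% of nuclei in the 4 libraries, at a median depth of 1645 to 2006 UMIs. Among neuron nuclei (at least 4 UMIs of the neuron genes), with a median depth of 5094 to 6051 UMIs, 37.2%, 37.9%, 45.9% and 50.8% had one. The 6 rule genes were each found in 60.8% (Aspa, cortex AAV-VEGF-C) to 93.3% (Prr5l, striatum AAV-VEGF-C) of the chosen nuclei. St18, a zinc-finger factor, stood at 2049, 1914, 2223 and 2079 CPM, and the 4 levels lay close together. Prr5l, a partner of the kinase complex mTORC2, stood at 1713, 1559, 2228 and 2009 CPM, higher in both libraries labelled striatum (log2 difference 0.31). The myelin-associated glycoprotein gene Mag stood at 1289, 1463, 1236 and 1405 CPM. Neuron nuclei held Mbp at 122, 117, 165 and 159.6 CPM, higher under the striatum label. The part of free RNA in droplets in these levels was not tested.

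Genes that stood out most against all other nuclei were taken as the 15 with the highest ratio in the library where it was lowest. Beside the rule genes St18, Prr5l and Aspa these were Slc13a1, Sec14l5, Ninj2, Galnt6 and 8 non-coding or predicted genes, among them C030029H02Rik and A330049N07Rik. Sec14l5, of a family of lipid transfer proteins, stood at 378, 331, 423 and 389.6 CPM, against 15.9, 14.6, 37.0 and 33.0 CPM in all other nuclei. Ninj2, a cell adhesion gene, stood at 380.0, 314, 360.2 and 335 CPM, against 17.7, 15.2, 29.2 and 29.8 CPM. The non-coding C030029H02Rik stood at 308, 278, 280.3 and 286 CPM, against 11.7, 11.8, 19.0 and 19.9 CPM. All 3 were present at similar levels in the 4 libraries and were many-fold above the rest in each.

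The 4 libraries held 820, 976, 2398 and 2018 mature oligodendrocyte nuclei, which is 4.78% (exact binomial 95% interval 4.46% to 5.11%), 4.79% (4.50% to 5.09%), 10.1% (9.73% to 10.5%) and 11.6% (11.1% to 12.04%) of all nuclei. All intervals here cover counting error only. The shares under the striatum label were above both under the cortex label, whose intervals overlapped each other. With 1 library per group, no test was made of the AAV label.

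The limit on neuron genes decided much of these shares. Of nuclei with at least 6 UMIs of the rule genes it took out 51.5%, 53.4%, 38.5% and 37.9%, more under the cortex label. Without any upper limit the shares were 11.1%, 11.6%, 19.7% and 22.0% of nuclei, and with no UMI of a neuron gene allowed they were 1.92%, 2.13%, 5.16% and 5.74%. The libraries kept their order under both. Nuclei just inside the minimum of 6 rule UMIs numbered 57, 69, 105 and 59 and held Mbp at 1540.3, 1763, 1502 and 1933 CPM. Those just outside it, with 5, numbered 46, 54, 70 and 56 and held Mbp at 1741, 1824, 1289 and 1379 CPM.

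**Figure D1:**
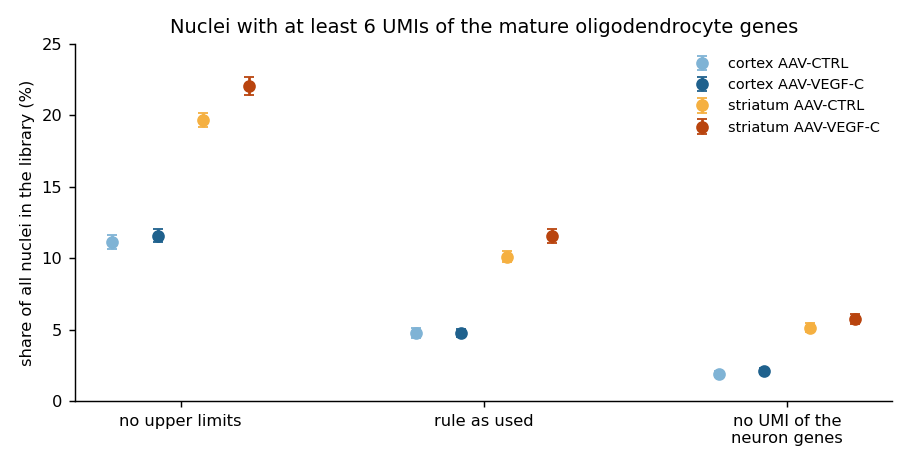
Share of all nuclei (vertical axis, percent) with at least 6 UMIs of the 6 rule genes in each library, without upper limits, under the rule as used and with no UMI of the neuron genes. Points are libraries, bars exact binomial 95% intervals, and both libraries labelled striatum lie above both labelled cortex under each setting.

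The chosen nuclei had a median of 1645, 1642.5, 1713.5 and 2006 UMIs, fewer than neuron nuclei with 5094, 5263, 5296 and 6051. Thinned to 1000 UMIs each, they held a median of 757, 758, 756 and 757 genes, so that the libraries hardly differed at equal depth. Their summed counts were 1439314, 1742519, 4555320 and 4301915 UMIs. A doublet caller (Scrublet) marked 3.41%, 4.30%, 7.21% and 3.67% of them.

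The region labels were compared over the summed counts of each library with edgeR's quasi-likelihood test, with the pool of mice as a term, which leaves 1 residual degree of freedom. Large differences among the genes named below included those of Tbr1, Neurod6, Shox2 and Calb2, which neurons express, and those of Egr3 and Spp1. Smaller ones were found in genes held above the reference nuclei described below, such as Robo1 and Hcn2. Of 13201 genes tested, 2474 passed an adjusted p of 0.05, of which 1042 (7.89%) were higher under the striatum label and 1432 (10.8%) under the cortex label. The prior degrees of freedom of the fit were infinite for every gene, so that each gene's spread was that of the trend over all genes. DESeq2 called 574 genes, 152 (1.15%) higher under the striatum label and 422 (3.2%) under the cortex label. Fits that left out 1 library had no term for the pool, and how many of these 4 kept a call is given for some genes only. Other calls were lost in at least 1 of these fits without this being stated, among them those of Ptgds, Prr5l, Opalin, Mal and Sox10.

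The genes that fell most under the striatum label included genes of cortical excitatory neurons and immediate early genes. Tbr1, a factor of deep-layer cortical neurons, stood at 59.1, 50.5, 2.85 and 0.93 CPM in the chosen nuclei (log2 difference -4.88, edgeR adjusted p = 1.41e-65). Neurod6, a factor of pyramidal neurons, stood at 97.3, 84.9, 5.05 and 3.25 CPM (log2 difference -4.50, edgeR adjusted p = 5.25e-103). For each gene, both libraries labelled cortex were well above both labelled striatum. Among the 12 genes with the largest falls were also Egr3, Neurod2, Nrgn, Rprml, Igfbp6, Egr1, Ier5, Ddn and 3110035E14Rik.

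The genes that rose most under the striatum label were of several kinds. Shox2, a homeobox factor of thalamic neurons, was at 0 UMIs in both cortex-labelled libraries and at 41.9 (AAV-CTRL) and 56.3 (AAV-VEGF-C) CPM in those labelled striatum. Calb2 (calretinin, a calcium buffer) stood at 10.4, 11.5, 97.7 and 128 CPM (log2 difference 3.30, edgeR adjusted p = 2.18e-67). Nefh, the heavy neurofilament of large axons, stood at 23.6, 21.8, 51.8 and 57.4 CPM (log2 difference 1.21, edgeR adjusted p = 6.70e-10). Both striatum-labelled libraries were above both labelled cortex in each. Zcchc12, Vat1, Slc7a15, Nap1l5, Id4, Thsd4, Pkd2l1, 5033421B08Rik and Klk6 completed the 12 genes with the largest rises. The last 4 of these and Slc7a15 had a mean over the 4 libraries at least 2-fold that of the reference nuclei described next. Id4, an inhibitor of transcription factors, stood at 36.8, 33.3, 76.2 and 77.6 CPM in the chosen and at 111, 88.7, 158 and 128 CPM in the reference nuclei.

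The same genes were read in reference nuclei, chosen after the data were seen as nuclei with at least 3 UMIs of Csf1r, Cldn5 and Aqp4 and almost none of the rule and neuron genes. Their 313, 356, 624 and 432 nuclei held Tbr1 at 33.3, 49.7, 3.68 and 0 CPM, Neurod6 at 69.7, 49.7, 5.15 and 2.87 CPM and Calb2 at 6.06, 6.72, 84.6 and 114 CPM. These levels followed the region label in cells of other types too. Without genes of the rule, 10 cortical and hippocampal excitatory markers were tested, of which 7 passed higher under the cortex label and 1 under the striatum label, and of 15 diencephalic and midbrain markers all 15 passed higher under the striatum label. The neuron marker list as a whole summed to 8307, 7424, 8012 and 6896 CPM in the chosen nuclei and to 7668, 7389, 8432 and 6742 CPM in the reference nuclei. The part of free neuronal RNA in these differences was not tested.

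Immediate early genes, which cells switch on within minutes of a stimulus, were lower under the striatum label as a list. Of 22 tested, 14 passed higher under the cortex label and none under the striatum label, beside 10.8% and 7.89% of all genes. Their median log2 difference was -1.29, beside 0.01 over all genes tested. Egr1 stood at 393, 306, 55.5 and 46.5 CPM (log2 difference -2.84, edgeR adjusted p = 6.81e-179), and in the reference nuclei at 295, 246, 47.1 and 52.6 CPM. It was low under the striatum label in both kinds of nuclei.

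A second reading, added after the data were seen, took only genes whose mean level over the 4 libraries was at least 2-fold that of the reference nuclei. Since that mean includes the libraries where a gene is high, a gene could be taken through these libraries alone. Robo1, for example, was under 2-fold in both libraries labelled cortex. The counts by direction therefore describe this choice of genes. Of the 907 genes taken, 125 (13.8%) passed the test higher under the striatum label and 43 (4.74%) higher under the cortex label. DESeq2 called 19 (2.09%) and 2 (0.221%) of them. The 20 genes named with the largest rises and the 15 with the largest falls are given here by role, and the values of all are plotted. Of the 20, DESeq2 also called 10, namely Robo1, Thsd4, 5033421B08Rik, Tmem117, Hcn2, March1, Spock3, Usp31, Grm7 and Pcdh15.

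**Figure D2:**
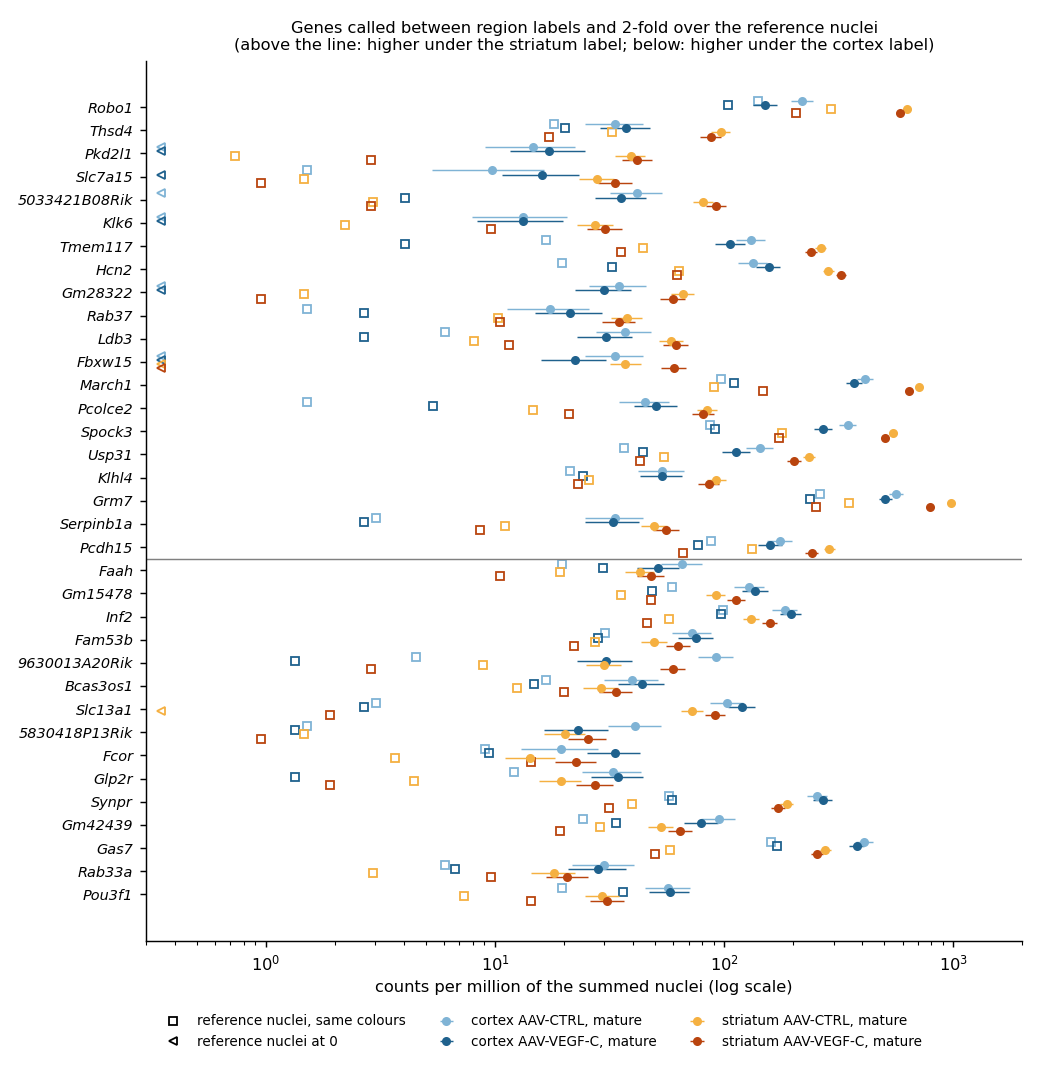
CPM (horizontal log axis) of the 20 genes with the largest rise and the 15 with the largest fall under the striatum label. They were taken among genes 2-fold over the reference nuclei in the mean of the 4 libraries. Filled points are mature oligodendrocyte nuclei with Poisson 95% intervals and open squares reference nuclei (open triangles at 0 UMIs), 1 colour per library, and in Robo1, Hcn2 and Tmem117 both striatum-labelled points lie right of both cortex-labelled ones.

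Robo1 (ENSMUSG00000022883; GRCm38 chromosome 16, 72308306 to 73046095, plus strand), a receptor for the axon guidance proteins of the Slit family, led the rises. Its level was 219, 151, 628 and 583 CPM in the chosen nuclei and 141, 104, 292 and 205 CPM in the reference nuclei. Both striatum-labelled libraries were far above both labelled cortex (log2 difference 1.67, edgeR adjusted p = 2.16e-80, implied SE 0.09), and DESeq2 gave an adjusted p of 2.27e-23. Under the cortex label it was lower in AAV-VEGF-C than in AAV-CTRL, a log2 ratio of -0.54 (-0.78 to -0.30). Dcc, a receptor of the guidance protein netrin, stood at 372, 370.1, 589 and 479 CPM (log2 difference 0.45, edgeR adjusted p = 1.63e-07, kept in 1 of 4 fits without 1 library).

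Channel and receptor genes were among the rises. Hcn2 (ENSMUSG00000020331; chromosome 10, 79716634 to 79736108, plus strand), which forms a cation channel opened by hyperpolarization, stood at 133, 156, 284 and 323 CPM and at 19.7, 32.3, 63.3 and 62.2 CPM in the reference nuclei. The 2 labels did not overlap (log2 difference 1.00, edgeR adjusted p = 2.77e-25, implied SE 0.09). Pkd2l1, a channel of the polycystin family, stood at 14.6, 17.2, 39.1 and 41.8 CPM (log2 difference 1.28, edgeR adjusted p = 2.25e-08, DESeq2 adjusted p = 0.0585) and was at 0 UMIs in the reference nuclei of both cortex-labelled libraries. Grm7, a metabotropic glutamate receptor, stood at 561, 504, 978 and 791 CPM (log2 difference 0.66, edgeR adjusted p = 5.84e-18). The channel, gap junction and transporter list, without Aqp4, which the rule limits, had 29 genes tested, of which 8 passed the test higher under the striatum label and 5 higher under the cortex label, beside 7.89% and 10.8% of all genes tested. The 8 include Kcnj10 and Trpm3, which astrocytes express, and the 5 were Slc1a1, Slc1a2, Gria2, Grin2a and Kcnq5, which neurons or astrocytes express. The reference nuclei held Slc1a2 at 2427, 3217, 1954 and 1607 CPM, above the 725, 650.2, 310.0 and 261 CPM of the chosen nuclei.

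The potassium channel gene Kcnk13 stood at 197, 164, 251 and 231 CPM (log2 difference 0.36, edgeR adjusted p = 9.08e-04). The transporter gene Slco3a1 stood at 196, 183, 290.4 and 265 CPM (log2 difference 0.49, edgeR adjusted p = 8.50e-07). Both were higher in the 2 striatum-labelled libraries, but DESeq2 called neither, with adjusted p of 0.43 and 0.0602, and 1 and 3 of 4 fits without 1 library kept the call. Gjb1 and Gjc3, connexin genes of gap junctions, did not pass the test, with log2 differences of 0.00 and 0.02 and edgeR adjusted p of 0.993 and 0.896.

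Among the other rises were Thsd4, an extracellular matrix gene (33.3, 37.3, 96.6 and 87.4 CPM, log2 difference 1.31, edgeR adjusted p = 1.48e-17), and Tmem117, a membrane protein gene (131, 106, 263 and 239 CPM, log2 difference 1.03, edgeR adjusted p = 4.42e-24). March1, a ubiquitin ligase gene, stood at 413, 368, 704 and 642 CPM (log2 difference 0.72, edgeR adjusted p = 2.32e-19). Spock3, a proteoglycan gene, stood at 345, 269, 546 and 504 CPM (log2 difference 0.72, edgeR adjusted p = 1.65e-17). In each of these the 2 labels were apart. Slc7a15, 5033421B08Rik, Gm28322, Rab37, Ldb3, Fbxw15, Pcolce2, Usp31, Klhl4, Serpinb1a and Pcdh15 made up the rest of the 20 with Klk6, with log2 differences from 0.60 to 1.17.

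Klk6 (kallikrein 6, a protease of a mature oligodendrocyte subtype; ENSMUSG00000050063; chromosome 7, 43824499 to 43832030, plus strand) rested on few counts. It had 19, 23, 125 and 130 UMIs, or 13.2, 13.2, 27.4 and 30.2 CPM, and was found in 15 of 820, 20 of 976, 103 of 2398 and 101 of 2018 nuclei. Its level was higher in both striatum-labelled libraries than in both labelled cortex (log2 difference 1.07, edgeR adjusted p = 7.53e-05), whereas DESeq2 gave an adjusted p of 0.361. At 1000 UMIs per nucleus, 1.12%, 1.04%, 2.40% and 2.51% of nuclei had a Klk6 UMI, beside 0.164%, 0.0611%, 0.302% and 0.31% of neuron nuclei thinned alike. Before thinning the medians were 1645 to 2006 UMIs in the chosen and 5094 to 6051 in neuron nuclei.

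The falls under the striatum label were smaller. Gas7 (ENSMUSG00000033066; chromosome 11, 67455437 to 67688990, plus strand), a growth-arrest gene of the cytoskeleton, stood at 409, 379, 276 and 254 CPM and at 161, 171, 58.1 and 49.8 CPM in the reference nuclei (log2 difference -0.64, edgeR adjusted p = 2.21e-13, implied SE 0.08). Synpr, a synaptic vesicle gene, stood at 254, 269, 187 and 172 CPM (log2 difference -0.61, edgeR adjusted p = 1.14e-10). These were the 2 genes of the 43 that DESeq2 called. Slc13a1, a sulfate transporter gene, stood at 103, 119, 72.7 and 90.9 CPM and at 3.03, 2.69, 0 and 1.91 CPM in the reference nuclei (log2 difference -0.50, edgeR adjusted p = 9.38e-05, DESeq2 adjusted p = 0.341). The other 12 named falls ranged from -0.99 for Pou3f1 to -0.42 for Faah.

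Calls among myelin genes went both ways between the region labels. Of 24 genes of compact and non-compact myelin proteins, 3 passed the test higher under the striatum label (among them Mpzl1 and Pmp22). Another 3 passed it higher under the cortex label (Mal, Opalin and Tppp). Over all genes tested the shares were 7.89% and 10.8%. The median log2 difference was 0.08, while the summed list stood at 17356, 18782, 20881 and 22266 CPM, higher in both libraries labelled striatum. Pmp22, which encodes a membrane protein best known from peripheral myelin, stood at 49.3, 54.5, 82.1 and 86.9 CPM (log2 difference 0.64, edgeR adjusted p = 2.93e-05, DESeq2 adjusted p = 0.273). Mbp stood at 2366, 2388, 2339.7 and 2448 CPM and did not pass the test (log2 difference -0.05, edgeR adjusted p = 0.641).

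Opalin, a myelin membrane protein gene, stood at 363, 467, 318 and 400.3 CPM (log2 difference -0.27, edgeR adjusted p = 0.005). Mal, also a gene of the myelin membrane, stood at 1362, 1734, 1272 and 1578 CPM (log2 difference -0.18, edgeR adjusted p = 0.0328). In both, the libraries of the 2 region labels overlapped, with the AAV-VEGF-C library above the AAV-CTRL library under each label. DESeq2 called neither, with adjusted p of 0.491 and 0.635, and without the library cortex AAV-VEGF-C the difference of Mal was 0.0040.

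Of 21 genes of myelin lipid synthesis, 2 passed the test higher under the striatum label, Elovl5 and Pex5l, and 0 higher under the cortex label. Over all genes tested the shares were 7.89% and 10.8%. Elovl5, a fatty acid elongase gene, had a log2 difference of 0.37 that DESeq2 did not call (adjusted p = 0.788) and that passed in 0 of 4 fits without 1 library. Pex5l, related to a peroxisome import receptor, stood at 1562, 1475, 2470.5 and 2275 CPM (log2 difference 0.58, edgeR adjusted p = 6.18e-18, DESeq2 adjusted p = 1.72e-07). Ugt8a, whose enzyme makes galactocerebroside, stood at 598, 674, 728 and 694 CPM (log2 difference 0.10, edgeR adjusted p = 0.411). Fa2h, the fatty acid 2-hydroxylase of myelin, stood at 558, 607, 599 and 634 CPM (log2 difference 0.02, edgeR adjusted p = 0.92). Neither passed the test. Of 28 genes of cholesterol synthesis and handling, 1 passed it in each direction, Insig2 (0.47) and Mvk (-0.71), and DESeq2 called neither (adjusted p of 0.898 and 0.965).

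Of 17 genes of axon contact and the paranode, 1 passed the test higher under the striatum label and 3 higher under the cortex label. Over all genes tested the shares were 7.89% and 10.8%. Epb41l3, a cytoskeletal gene of the paranode, had a log2 difference of 0.25, not called by DESeq2 (adjusted p = 0.806). Lingo1, an inhibitor of myelination, stood at 191, 177, 66.5 and 60.9 CPM (log2 difference -1.59, edgeR adjusted p = 1.19e-49), and the reference nuclei held it at 167, 184, 61.1 and 65.1 CPM. Nrcam (-0.72) and Sema4d (-0.29) were the other 2, with DESeq2 adjusted p of 0.0209 and 0.728. Nfasc, whose glial form joins the paranode, stood at 847, 814, 782 and 764 CPM and did not pass the test (edgeR adjusted p = 0.0816).

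Of 18 transcription factors of the lineage tested, 4 passed the test higher under the striatum label (Tcf7l2, Id4, Olig2 and Myrf) and 3 higher under the cortex label (Id2, Rxrg and Sox10), beside 7.89% and 10.8% of all genes. DESeq2 called Tcf7l2, Id4 and Id2 alone, which followed the label in the reference nuclei too. Sox10, which the whole lineage needs, stood at 226, 248, 158 and 237 CPM, lowest in striatum AAV-CTRL, and the labels overlapped (log2 difference -0.34, edgeR adjusted p = 0.00147, DESeq2 adjusted p = 0.523). Olig2, which specifies the lineage, stood at 43.8, 50.5, 65.0 and 65.8 CPM (log2 difference 0.40, edgeR adjusted p = 0.0305), and Myrf, which drives myelin genes, at 106, 121, 134 and 151 CPM (log2 difference 0.27, edgeR adjusted p = 0.0487). For these 2, DESeq2 gave adjusted p of 0.995 and 1, and 0 of 4 fits without 1 library kept the call. Rxrg, a retinoid receptor gene, had a log2 difference of -0.88, with a DESeq2 adjusted p of 1.

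Tcf7l2, a factor of differentiating oligodendrocytes and also of thalamic neurons, stood at 77.8, 73.5, 238 and 242 CPM (log2 difference 1.61, edgeR adjusted p = 7.13e-49). Neuron nuclei held it at 15.3, 15.8, 277 and 339 CPM and the reference nuclei at 135, 114, 334 and 333 CPM, so that it moved with the label in each kind of nuclei. Id2, an inhibitor of such factors, moved the other way, from 105, 98.7, 35.3 and 28.8 CPM in the chosen and 171, 184, 126 and 98.6 CPM in the reference nuclei.

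The remaining lists are given by their counts. Of 44 receptor genes for growth factors, steroids and lipids tested, 11 passed the test higher under the striatum label and 7 higher under the cortex label, beside 7.89% and 10.8% of all genes tested. Of 16 iron and antioxidant genes, 2 passed it higher under the striatum label, one of them Trf, which encodes the iron carrier transferrin (670.5, 768, 848 and 914 CPM, log2 difference 0.23, edgeR adjusted p = 0.00832). DESeq2 did not call Trf (adjusted p = 0.457), and 0 of 4 fits without 1 library kept it. Of 26 genes tied to stress and disease in oligodendrocytes, 3 passed it higher under the striatum label and 2 higher under the cortex label, and of 19 clock genes 2 and 5. The counts of the stress list were near the shares over all genes. Spp1 (osteopontin), at 2.78, 0.574, 45.4 and 26.0 CPM, was one of these 3 (log2 difference 4.37, edgeR adjusted p = 1.52e-28), with 16.7, 8.07, 28.0 and 24.9 CPM in the reference nuclei.

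Mature subtype genes were also read as shares of nuclei with a UMI at 1000 UMIs each, which left out 13, 17, 62 and 22 shallower nuclei. Over 53 genes of 3 lists, 24 had both striatum-labelled libraries above both labelled cortex and 8 had both below. Of the 47 of these genes that were tested and found in at least 1% of nuclei, 22 (46.8%) were above and 7 (14.9%) below, beside 28.8% and 22.2% of all 10315 such genes. At 2000 UMIs, where 174, 234, 724 and 1013 nuclei remained, the counts were 16 and 12 of 50 (32% and 24%), beside 26.2% and 18.3% of 12116 genes, so that the subtype genes lay closer to all genes at that depth. By list at 1000 UMIs, they were 5 and 3 of 12 genes of the Klk6 group, 12 and 1 of 16 of the Ptgds group and 7 and 4 of 25 newly formed and myelin-forming genes. Ptgds (prostaglandin D2 synthase) was found in 59.1%, 60.9%, 67.6% and 76.2% of nuclei, beside 9.55%, 8.10%, 21.2% and 22.0% of neuron nuclei. Apod (apolipoprotein D) was found in 37.8%, 45.6%, 45.8% and 46.6%, beside 3.18%, 3.41%, 7.01% and 7.12% of neuron nuclei. Both were above the neuron nuclei in every library.

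As a level, Ptgds (ENSMUSG00000015090; chromosome 2, 25466709 to 25470046, minus strand) stood at 1476, 1653, 2123 and 2569.8 CPM (log2 difference 0.52, edgeR adjusted p = 2.15e-14, implied SE 0.06), with DESeq2 at 1.05e-05 as adjusted p. The 2 striatum-labelled libraries were above both labelled cortex. Reference nuclei held it at 265, 448, 695 and 545 CPM, higher under the striatum label too. Ptgds is also made by meningeal cells.

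The AAV labels were compared within each region label as ratios of CPM, AAV-VEGF-C over AAV-CTRL, with exact conditional binomial intervals. These ratios have no replicate check and no test, and each describes a pair of libraries. Few genes were past the fold, and the myelin gene Cnp was past it under both region labels. Under the cortex label, 17 of 3518 genes with at least 200 UMIs (0.483%) were past a log2 ratio of 0.58 upward and 6 (0.171%) downward. Under the striatum label, 47 of 7585 (0.62%) were past it upward and 53 (0.699%) downward. The median log2 ratios were -0.02 and -0.02. Of 3495 genes with 200 UMIs under both labels, 4 were past the fold upward in both, namely Cnp, Cryab, Cops9 and Rps29, and 0 downward in both. No p-value bears on these counts, and the 2 ratios come from the same 2 pools of mice.

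Cnp (ENSMUSG00000006782; chromosome 11, 100574904 to 100591729, plus strand), which encodes the myelin enzyme 2',3'-cyclic nucleotide phosphodiesterase, stood at 447, 778, 485 and 769 CPM. Its log2 ratio was 0.80 (0.66 to 0.93) under the cortex label and 0.66 (0.59 to 0.74) under the striatum label. In all other nuclei of the same libraries the ratios were 0.30 (0.25 to 0.35) and 0.41 (0.37 to 0.45), with intervals below those of the chosen nuclei. At 1000 UMIs, 34.2%, 50.9%, 39.1% and 51.2% of nuclei had a Cnp UMI, beside 7.75%, 8.19%, 10.1% and 14.0% of neuron nuclei, and the share was higher in AAV-VEGF-C under both labels. The highest 1% of nuclei held 5.32% to 7.14% of the Cnp UMIs.

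Cryab, the small heat shock protein alpha-B crystallin, stood at 118, 177, 131 and 197 CPM, with log2 ratios of 0.59 (0.31 to 0.86) and 0.59 (0.43 to 0.74), and in all other nuclei of 0.29 (0.19 to 0.39) and 0.27 (0.19 to 0.35). Cops9, of the COP9 signalosome, stood at 88.2, 147, 88.0 and 135 CPM, and its ratio was 0.74 (0.42 to 1.05) under the cortex label and 0.62 (0.43 to 0.81) under the striatum label. Rps29, of the small ribosomal subunit, stood at 649.6, 1032, 530.4 and 805 CPM, and its ratio was 0.67 (0.55 to 0.78) under the cortex label and 0.60 (0.53 to 0.68) under the striatum label, nearly the same as the 0.56 (0.54 to 0.58) and 0.57 (0.55 to 0.59) of all other nuclei. Cryab was at the edge of the fold under both labels, and its interval overlapped that of all other nuclei under the cortex label and not under the striatum label. Cnp and Rps29 were past the fold under both labels in every setting run, while Cryab fell short of it in thinned nuclei (0.48, cortex label), with a minimum of 10 rule UMIs (0.56, striatum label) and with no neuron UMI (0.43 and 0.55), and Cops9 with no neuron UMI (0.40, striatum label).

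Of the myelin protein genes with 200 UMIs, 2 of 22 were past the fold upward under the cortex label and 2 of 24 under the striatum label, in both cases Cnp and Cryab, and 0 downward. Their summed CPM had log2 ratios of 0.11 under the cortex label and 0.09 under the striatum label, beside -0.02 and 0.10 in all other nuclei, and their medians were 0.19 and 0.13, beside the -0.02 and -0.02 of all genes. Opalin had ratios of 0.36 (0.20 to 0.52) and 0.33 (0.23 to 0.44), beside 0.28 (0.17 to 0.39) and 0.36 (0.28 to 0.45) in all other nuclei. Mal had 0.35 (0.27 to 0.43) and 0.31 (0.26 to 0.36), beside 0.10 (0.05 to 0.15) and 0.31 (0.27 to 0.35). Tspan2, a tetraspanin of myelin, had 0.27 (0.14 to 0.41) and 0.22 (0.14 to 0.30). These 3 lay above 0 in both pairs, and under the striatum label their intervals overlapped those of all other nuclei. Mbp had 0.01 (-0.05 to 0.08) and 0.07 (0.03 to 0.10), close to 0.

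**Figure D3:**
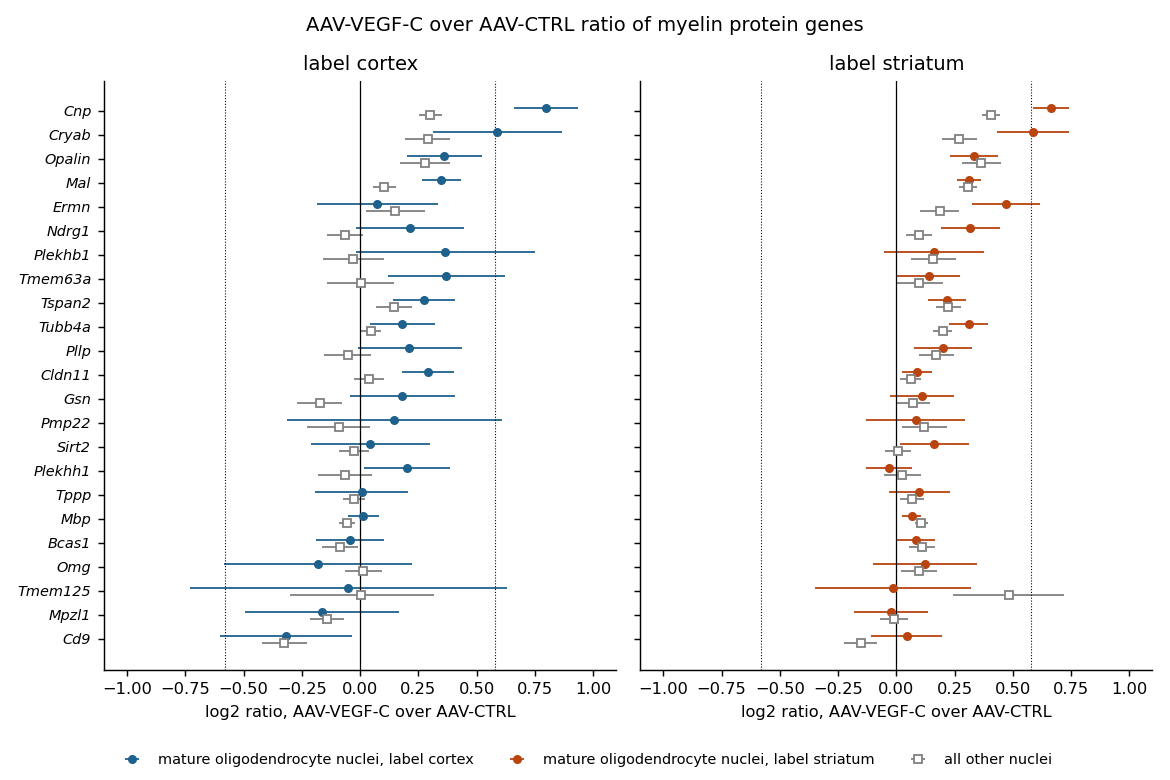
Log2 ratios of AAV-VEGF-C over AAV-CTRL (horizontal axis) of 23 of the 24 myelin protein genes under each region label, in mature oligodendrocyte nuclei (filled, blue under the cortex label and orange under the striatum label) and in all other nuclei (open squares), with exact 95% counting intervals. Dotted lines mark a log2 ratio of 0.58, and Cnp lies past it under both labels with its interval right of that of all other nuclei.

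The ratios followed gene length in all nuclei. Genes spanning under 5 kb had median log2 ratios of 0.22 and 0.20 in the chosen nuclei and 0.21 and 0.19 in all other nuclei, whereas genes over 100 kb had -0.08 and -0.12, and -0.04 and -0.07. Short genes were higher and long genes lower in both AAV-VEGF-C libraries, in the chosen and in all other nuclei. No gene spanning over 20 kb was past the fold upward under the cortex label, and of the 47 upward under the striatum label 41 spanned under 20 kb. Cytosolic ribosomal protein genes, a list added after the data were seen, summed to 16102, 20593, 16404 and 20912 CPM, and to log2 ratios of 0.35 and 0.35, beside 0.28 and 0.31 in all other nuclei. Mitochondrially encoded transcripts had 0.48 and 0.17, beside 0.42 and 0.31. The part of gene length in the ratios of Cnp, Cryab, Opalin and Mal, which span between 5 and 100 kb, was not tested.

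The iron and antioxidant list summed to log2 ratios of 0.36 and 0.32, beside 0.24 and 0.23 in all other nuclei. Fth1, the ferritin heavy chain and the most abundant gene of the list, had 0.55 (0.47 to 0.63) and 0.50 (0.45 to 0.55). It gave 2066 of 4374, 3664 of 6814, 6276 of 14561 and 8381 of 17172 UMIs of the list. Over the 5 and 13 genes of the list with 200 UMIs the median ratios were 0.24 and 0.11, and 0 were past the fold. The sums of 3 further lists lay closer to 0. Lipid synthesis genes summed to 0.10 and 0.03. Genes of axon contact summed to -0.04 and -0.09, and channel genes to -0.10 and -0.14. Among transcription factors, Sox10 was just past the fold under the striatum label, 0.58 (0.44 to 0.72), and not under the cortex label, 0.14 (-0.07 to 0.35). Olig1, a factor of the lineage, had 0.45 (0.20 to 0.70) and 0.34 (0.20 to 0.48). The difference of the Sox10 ratio between the region labels was not tested.

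Under the cortex label the largest ratio upward was that of Ttr (transthyretin, the main transcript of the choroid plexus), at 136, 572, 411 and 437 CPM and a log2 ratio of 2.07 (1.85 to 2.30). In cortex AAV-VEGF-C, 1 nucleus held 440 of the 996 Ttr UMIs and the highest 1% of nuclei held 66.3%, beside 25% in cortex AAV-CTRL. A Ttr UMI was found in 289 of 976 nuclei of cortex AAV-VEGF-C and in 144 of 820 of cortex AAV-CTRL. The part of the few richest nuclei in the ratio was not tested. Atox1 (a copper chaperone) followed with 0.88 (0.47 to 1.30). The genes past the fold downward included Eif2s3y, with -0.59 (-0.94 to -0.24). Pstpip2, which mature oligodendrocyte nuclei held far above the reference nuclei (282, 195, 285 and 265 CPM beside 6.06, 1.34, 8.09 and 11.5 CPM), was lower in cortex AAV-VEGF-C, -0.54 (-0.75 to -0.32), and not past the fold.

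Under the striatum label, Usmg5, of the mitochondrial ATP synthase, had a ratio of 0.77 (0.64 to 0.91), Rpl35 of 0.76 (0.51 to 1.01) and Anapc13 of 0.76 (0.43 to 1.09). Downward, Spp1 had -0.80 (-1.15 to -0.46) from 2.78, 0.574, 45.4 and 26.0 CPM and Ets2, a transcription factor gene, -0.63 (-1.01 to -0.25). Trpm3, a cation channel gene of astrocytes and choroid plexus named after its values were seen, was the only gene of the channel list past the fold downward, -1.07 (-1.16 to -0.98). Astrocyte markers were lower with it, the list summing to a log2 ratio of -0.41 in the chosen nuclei and -0.23 in all other nuclei. Their part in the ratio of Trpm3 was not tested.

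Of 12 VEGF ligand and receptor genes, none had 200 UMIs under the cortex label and 5 did under the striatum label. Vegfc, the delivered gene, gave 3, 5, 17 and 12 UMIs, and its receptor gene Flt4 (VEGF receptor 3) 1, 3, 7 and 3 UMIs. Kdr (VEGF receptor 2) gave 3, 5, 25 and 19 UMIs. Flt4 cannot be told from free RNA at this depth, since neuron nuclei held it at 2.01, 1.61, 2.38 and 2.01 CPM and the chosen nuclei at 0.695, 1.72, 1.54 and 0.697 CPM. Nrp2, a co-receptor, stood at 45.2, 44.2, 53.6 and 42.5 CPM and Vegfb at 20.8, 33.9, 34.2 and 39.8 CPM, with log2 ratios of -0.03 (-0.53 to 0.47) and -0.33 (-0.62 to -0.05), and of 0.70 (0.04 to 1.39) and 0.22 (-0.11 to 0.54). Nrp1, also a co-receptor, stood at 14.6, 23.0, 34.0 and 19.1 CPM and was the 1 gene of the list past the fold, downward under the striatum label at -0.84 (-1.24 to -0.44), beside -0.25 (-0.30 to -0.20) in all other nuclei. Of the 8 genes tested between region labels only Flt1 passed (log2 difference 0.71, edgeR adjusted p = 0.0101), where DESeq2 gave 0.86 and 2 of 4 fits without 1 library kept the call. For Flt1 the reference nuclei, which include endothelial cells, held 2041, 1849.9, 1804 and 1930.1 CPM beside 20.8, 13.2, 31.2 and 26.3 CPM.

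The lineage was read side by side in precursor nuclei (at least 3 UMIs of Pdgfra and Cspg4; 119, 120, 196 and 147 nuclei) and differentiating nuclei (at least 3 UMIs of Enpp6, Bmp4 and Gpr17; 40, 55, 144 and 120 nuclei). All 3 groups were chosen on lineage genes, so that this is a description. Fyn, a kinase of early myelination, stood at 337, 197, 241 and 255 CPM in precursors, 2106, 2532, 1897 and 1579.6 CPM in differentiating nuclei and 126, 107, 119.9 and 115 CPM in mature nuclei. Itpr2, a calcium release channel of newly formed oligodendrocytes, stood at 365, 313, 291 and 289 CPM in precursors, at 913, 889.8, 755 and 487 CPM in differentiating nuclei and at 36.1, 29.3, 27.9 and 31.8 CPM in mature nuclei. Both peaked in differentiating nuclei in every library.

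Myelin genes differed in their levels across these groups. Mbp stood at 103, 81.4, 142 and 164 CPM in precursors and 2817, 2005, 2274 and 2461 CPM in differentiating nuclei as chosen here, beside 2366, 2388, 2339.7 and 2448 CPM in mature nuclei. Opalin stood at 10.3, 12.5, 20.1 and 21.7 CPM in precursors and 43.9, 31.3, 67.2 and 45.9 CPM in differentiating nuclei, far below the 363, 467, 318 and 400.3 CPM of mature nuclei. Zfp536, a zinc-finger factor, was higher at each step, with 227, 116, 205 and 199.7 CPM in precursors, 412, 382, 571 and 576 CPM in differentiating nuclei and 962, 966, 1097 and 1089 CPM in mature nuclei. Tcf7l2 was highest in differentiating nuclei of every library, with 1351, 1335, 1016 and 966 CPM beside 114, 157, 277 and 306 CPM in precursors.

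**Figure D4:**
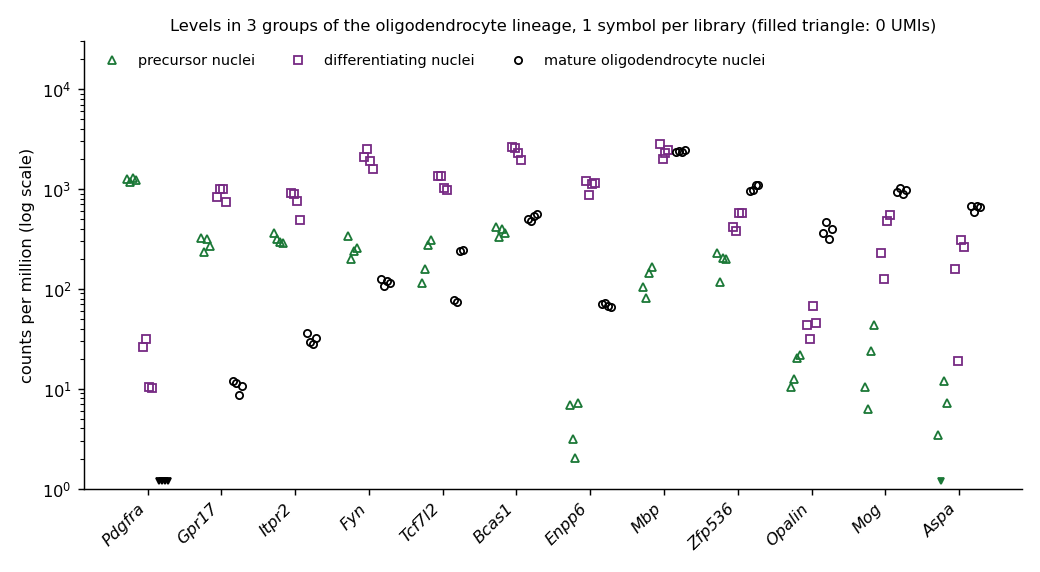
CPM (vertical log axis) of 12 genes in precursor, differentiating and mature oligodendrocyte nuclei, 1 symbol per library and a filled triangle for 0 UMIs. Fyn and Itpr2 peak in differentiating nuclei, whereas Opalin, Mog and Aspa are highest in mature nuclei (Pdgfra, Gpr17, Enpp6, Mog and Aspa belong to the rules that chose the nuclei).

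Variation among the mature nuclei of a library was measured as variance over mean of UMIs at 1000 UMIs per nucleus, which is 1 for counting noise alone. Of 3682 genes with a mean of at least 0.05 UMIs, 31 had at least 1.5 in every library. Malat1, a nuclear RNA, led with 12.02, 12.9, 10.4 and 10.6. Kirrel3, an adhesion molecule, had 3.17, 2.61, 2.70 and 2.64. Ptgds had 2.42, 3.02, 3.96 and 3.27. Both were above 2 in all 4 libraries. The rule genes had 1.06 (Mag) to 1.39 (St18) as the lowest of the 4 libraries.

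Some of the variable genes are known from other cells. Ttr had 3.07, 28.2, 24.6 and 34.0, with 1 nucleus holding 967 of 1879 UMIs in striatum AAV-VEGF-C. Gpc5 and Trpm3, abundant in astrocytes, had 4.61, 4.30, 3.98 and 2.84 and 2.23, 3.43, 7.40 and 4.15, and the highest 1% of nuclei held 38.1% to 46.5% of Gpc5 UMIs. Pcdh9, Lsamp, Tmeff2, Nckap5, Ntm, Nkain2 and Pex5l were also among the 15 most variable genes. Of these, Pex5l stood at 643, 629, 468 and 439 CPM in all other nuclei, well under its level in the chosen nuclei.

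The mature nuclei were split by their Ptgds UMIs at limits chosen after the data were seen. Nuclei with 1 or 2 Ptgds UMIs lay between these limits and were left out. They numbered 298 of 807, 355 of 959, 874 of 2336 and 744 of 1996. At 1000 UMIs, 22.2%, 23.9%, 30.1% and 38.9% of nuclei had at least 3 Ptgds UMIs and 40.9%, 39.1%, 32.4% and 23.8% had none, the first share higher and the second lower under the striatum label. Nuclei rich in Ptgds were compared with those without it, gene by gene within each library, over 2151 genes. Since Ptgds UMIs chose both sets, this is a description. A log2 ratio of at least 0.58 in the same direction in every library was found for 11 genes upward and 26 downward.

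Genes that went with Ptgds were Slc13a1, with log2 ratios of 1.63, 1.56, 1.59 and 2.47, and Il33 (an alarmin of mature oligodendrocytes), with 1.29, 1.08, 1.70 and 1.28. Kirrel3 had 0.88, 0.94, 1.29 and 1.04, Cd9 (a tetraspanin) 0.88, 0.83, 0.99 and 0.86, Apoe (a lipid carrier) 0.93, 0.78, 0.83 and 0.87 and Opalin 0.74, 0.62, 0.92 and 0.89. Fam13c, Pvt1, Palm2, Gm42413 and Srgap1 made up the 11. Genes that went against it were led by Tspan9 (a tetraspanin), with -2.12, -1.64, -2.70 and -2.13, and Tln2 (talin 2, which ties adhesion to the cytoskeleton), with -2.09, -1.43, -1.83 and -1.51. Anln (anillin) had -2.15, -1.44, -1.31 and -1.53, Selenop (selenoprotein P) -1.92, -1.72, -1.36 and -1.07 and Hapln2 (a link protein of the node of Ranvier) -0.85, -1.74, -1.098 and -0.82. Anln and Selenop belong to the list named the Ptgds group above, as does Il33, which went with Ptgds.

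Slco3a1 and A330049N07Rik, which were higher under the striatum label, went against Ptgds, with -1.47, -1.42, -1.05 and -1.23 and -1.33, -1.01, -0.85 and -1.01, although Ptgds itself was higher under that label. Slc13a1, which was higher under the cortex label, went with it.

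**Figure D5:**
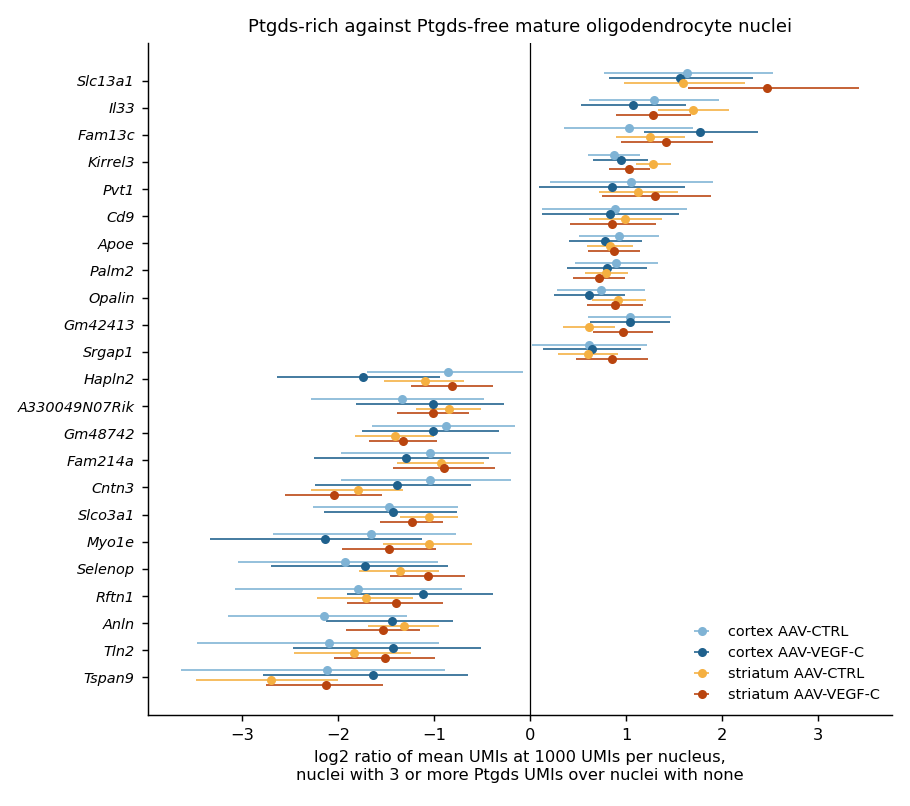
Log2 ratio of mean UMIs at 1000 UMIs per nucleus (horizontal axis) in nuclei with at least 3 Ptgds UMIs over nuclei with none, for the 11 genes at 0.58 or more in every library and the 12 with the strongest opposite ratios of 26. Points are libraries and bars exact 95% counting intervals, and the 4 libraries lie on the same side of 0 for each gene shown.

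A few nuclei within the set held more of the genes of an earlier stage. 9630013A20Rik, a long non-coding RNA of newly formed oligodendrocytes, had at least 3 UMIs in 8, 2, 8 and 6 nuclei, a small group taken after the data were seen. In these nuclei the newly formed and myelin-forming list, without 9630013A20Rik itself, summed to 40413, 42179, 27661 and 37297 CPM, against 15228, 16066, 18874 and 19388 CPM in the rest of the set. Itpr2 stood at 789.7, 1117, 414 and 591 against 20.6, 24.8, 26.2 and 27.4 CPM. Mbp stood at 7417, 7123, 5335 and 7058 against 2262, 2369, 2327 and 2412 CPM. Ptgds stood at 68.7, 0, 155 and 148 against 1505, 1660.2, 2131 and 2589 CPM. Klk6 was at 0 UMIs in all of these nuclei, but the rest of the set held only 13.5, 13.3, 27.6 and 30.5 CPM. At such levels so few nuclei cannot show a difference. These nuclei held a median of 3695, 3580, 2228.5 and 5454 UMIs, more than the set as a whole.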

How the data were processed

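Single nuclei of pooled mouse brain tissue were profiled with 10x 3' chemistry in 4 libraries. The deposited values are raw UMI counts per gene and nucleus, made by the authors with Cell Ranger against mm10 (version 5.0.1 per the file headers, 5.1.1 per the submitters' processing notes). Whether intronic reads were counted is not given in the sources used here. Groups came from the sample labels. All intervals cover counting error only.

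The nuclei were chosen by the UMI rule from the counts as deposited, without a filter on cells, and UMIs were summed per library, since nuclei are not replicates. The members and gene lists were chosen with earlier results of these data known. Region labels were compared with edgeR 4.0.16 (R 4.3.3) in a quasi-likelihood fit with region label and AAV label, TMM scaling, genes with at least 40 UMIs and Benjamini-Hochberg adjustment. Standard errors are those implied by the fold change and its p-value. With the pool as a term, the p-values rest on what pool and region label leave over and on the trend over genes, and the 2 libraries of an AAV label came from the same 5 mice, so that the AAV label is the pool and the replicate block. The pairing comes from the study's methods, and the AAV log2 ratios under the 2 region labels had a Pearson r of 0.38 across 3495 genes, which are not independent replicates. DESeq2 1.42.0 was an alternative. AAV ratios have 1 library per group and no test.

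Genes were named by a rule on size: the 12 largest region differences each way above all other nuclei at 20 CPM or more, the 6 largest AAV ratios each way, the 15 most variable genes and the 15 most enriched. The 20 and 15 genes named over the reference nuclei were taken alike. The lists of myelin, transcription factor, lipid and VEGF genes, and the other lists, were named freely by their counts. Reference nuclei, genes 2-fold over them, the splits by Ptgds and by 9630013A20Rik, gene span, the ribosomal list and the setting with no neuron UMI were chosen after seeing the data. Doublets were marked with Scrublet (scanpy 1.11.5) and left out as an alternative only. A few genes are not reported here. Positions are from the GENCODE annotation of GRCm38, the assembly of mm10. On simulated counts for the region comparison over 13198 genes, 72.2% of 2-fold and 98.9% of 4-fold changes were recovered.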

Additional observations from a re-analysis of the deposited data

Results flagged for a closer look

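For 2 genes the AAV-VEGF-C to AAV-CTRL ratio went in opposite directions under the 2 region labels, each with an interval that left out 0. Under the cortex label both genes fell short of the minimum of 200 UMIs used for the AAV ratios above. Of the 3495 genes with 200 UMIs under both labels, 0 were past the fold in opposite directions. The difference between the labels was not tested. Gm19951, a predicted gene, had a log2 ratio of -0.73 (-1.34 to -0.12) under the cortex label and 1.45 (1.11 to 1.78) under the striatum label, from 38.9, 23.5, 23.1 and 62.8 CPM. Its UMIs numbered 56, 41, 105 and 270. In all other nuclei its ratios were 0.04 (-0.05 to 0.13) and 1.14 (1.05 to 1.23). 9630013A20Rik, the non-coding RNA of newly formed oligodendrocytes, had log2 ratios of -1.59 (-2.08 to -1.12) and 1.00 (0.70 to 1.31), from 132, 53, 136 and 257 UMIs found in 19, 16, 51 and 47 nuclei. The highest 1% of nuclei held 92.4%, 88.7%, 80.1% and 89.9% of its UMIs, so that a handful of nuclei set both ratios.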

How the results depend on the processing

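The shares of nuclei moved with the rule. They were 5.59%, 5.53%, 11.7% and 13.3% with a minimum of 3 rule UMIs, 3.29%, 3.31%, 8.01% and 9.89% with a minimum of 10, and 5.40%, 5.37%, 11.6% and 13.4% when nuclei were thinned first. They were 11.1%, 11.6%, 19.7% and 22.0% without upper limits and 1.92%, 2.13%, 5.16% and 5.74% with no neuron UMI, a setting chosen after seeing the data. Both striatum-labelled libraries stayed above both labelled cortex in each.

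Region calls numbered 2474 (1042 higher under the striatum label, 1432 under the cortex label), and 125 and 43 among genes over the reference nuclei. DESeq2 gave 574 (152 and 422), and 19 and 2, and moved the share of calls higher under the striatum label from 42.1% to 26.5%. With no replicate block, the region label alone gave 648 higher under the striatum label of 1671 calls, and 54 and 14. Thinned nuclei gave 645 higher under the striatum label, and 21 over the reference nuclei higher under the cortex label. A minimum of 10 rule UMIs gave 1579 calls, 599 higher under the striatum label and 67 of these over the reference nuclei. No upper limits gave 59 of the latter, a minimum of 1 UMI gave 27 over the reference nuclei higher under the cortex label, and no neuron UMI gave 1178 calls (445 and 733), and 68 and 17. Leaving out 1 library at a time, without the block, gave 1145 to 1995 calls, of which 433 to 812 were higher under the striatum label and 712 to 1183 under the cortex label, and over the reference nuclei 26 to 65 and 6 to 38. The lowest total came without cortex AAV-VEGF-C, then cortex AAV-CTRL (1390) and striatum AAV-CTRL (1474). The log2 difference changed sign for 9630013A20Rik without cortex AAV-CTRL (range -1.101 to 0.49) and for Mal without cortex AAV-VEGF-C (range -0.35 to 0.0040). Of 1053 such values of 81 named genes, 805 kept direction and call, 246 lost the call and 2 changed sign. The cause was not tested.

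AAV counts depended on the UMI minimum. With at least 50 UMIs, 239 genes were past the fold upward and 217 downward under the cortex label, and 223 and 364 under the striatum label. With 1 UMI the counts were 3721 and 3149, and 3069 and 3892. Downward counts fell to 2 (cortex) and 21 (striatum) in thinned nuclei, and under the striatum label to 29 without called doublets and 35 with no neuron UMI. Of 273 ratios of 39 named genes, 262 stayed within their main interval and none of those past the fold changed sign. Subtype genes lower in both striatum-labelled libraries numbered 4 as deposited and 13 at 2000 UMIs, and 142 genes had a variance over mean of at least 1.5 at 2000 UMIs.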
